A study of Mus musculus with 25 samples.

Results

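RNA levels of 43 genes of antioxidant defence, glutathione metabolism and iron storage were followed in mouse embryos. The genes were taken by name and role, with no threshold on measured values, and all 43 were present, at 1 locus each, among the 24708 gene loci of the deposited tables. The series uses the BDF1 strain and follows in vitro fertilisation (IVF), a condition labelled Fzr1-OE and the fat of adult mice. Samples were blastocysts of embryonic day 4.0 and 2-cell embryos of embryonic day 1.5. The blastocysts carry the label Fzr1-OE in 3 libraries and Control in 2, and the 2-cell embryos sIVF, IVF or WT in 2 libraries each. The labels name no further allele or agent, give no construct or delivery for Fzr1-OE, and do not say what sIVF stands for or how the Control and WT embryos were conceived. Subcutaneous fat of 4-month-old mice, labelled Fzr1-OE and Control, was covered through the authors' deposited lists of gene ontology terms.

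Cells remove reactive oxygen in steps. Superoxide dismutases turn superoxide into hydrogen peroxide, which catalase, glutathione peroxidases and peroxiredoxins then reduce. Glutathione, thioredoxin and glutaredoxin supply the electrons, glutathione reductase and thioredoxin reductase recycle them with NADPH, and the pentose phosphate pathway makes much of that NADPH. Glutathione transferases couple glutathione to reactive compounds, metallothioneins bind zinc and copper, and ferritin, a shell of heavy and light subunits, stores iron that would otherwise feed radical chemistry. NRF2 (gene Nfe2l2) is the transcription factor that switches on many of these genes, KEAP1 marks it for breakdown, and p62 (Sqstm1) can draw KEAP1 away. Early embryos meet such stress in culture, and the 2-cell embryo still holds much RNA laid down in the egg.

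Blastocyst libraries held 9321858 to 10481198 fragments and 2-cell libraries 4741128 to 6375827, as worked out from the bounds given with each value. Values are FPKM, a fragment count scaled by transcript length and library depth, so levels of different genes are per length. Libraries labelled Fzr1-OE had no more Fzr1 RNA (12.7, 15.5 and 17.1 FPKM) than the Control pair (16.5 and 16.5 FPKM; log2 fold change -0.13, standard error (SE) 0.16, limma adjusted p = 0.713), so every direction below rests on the labels alone. The 12 trophectoderm markers summed to at least 3829 FPKM in each blastocyst library and to at most 27.6 FPKM in each 2-cell library. The 12 oocyte and 2-cell markers summed to 3411 to 4292 FPKM in blastocyst libraries and 4007 to 6204 FPKM in 2-cell libraries, which overlap. Of the 10 measured between Control blastocysts and WT 2-cell embryos, 2 were higher and 8 lower in blastocysts. In any library the 15 cumulus and granulosa cell markers summed to at most 3.92 FPKM, the 6 fibroblast markers to at most 0.227 FPKM, the 8 sperm markers to at most 19.4 FPKM and the 6 listed of 7 blood markers to at most 13.9 FPKM. Whether replicates are separate cultures or animals is not in the labels, and p-values cover only the spread between these libraries, which may be technical.

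The level of the set was carried by few genes. In all 6 2-cell libraries the highest member was Mt1, a metallothionein gene, followed by Sod1, the cytosolic superoxide dismutase gene, and Ftl1, the ferritin light subunit gene. In all 5 blastocyst libraries Ftl1 was highest. Mean Ftl1 was 6519 ± 464 FPKM in blastocysts labelled Fzr1-OE (SD, n = 3) and 5288 ± 219 FPKM in Control (SD, n = 2). The 43 members made up 2.24% to 2.68% of all FPKM in a blastocyst library and 1.13% to 1.55% in a 2-cell library. Within the set, the share of the ferritin genes was 54.4% to 55.2% in libraries labelled Fzr1-OE, 49.3% to 49.9% in Control and 15.8% to 24.8% in 2-cell libraries. The share of the metallothionein genes was 9.44% to 12% in blastocyst libraries and 39.1% to 50.3% in 2-cell libraries. Sod3, the extracellular dismutase gene, was listed at 0 in all 11 libraries. Of the 43 members, 42 were above 0 in each blastocyst library and 34 to 38 in a 2-cell library. Srxn1 and Gstm2 were listed at 0 in all 6 2-cell libraries, as were Cat, Gsta3 and Gstm1 in 5 of the 6.

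**Figure D1:**
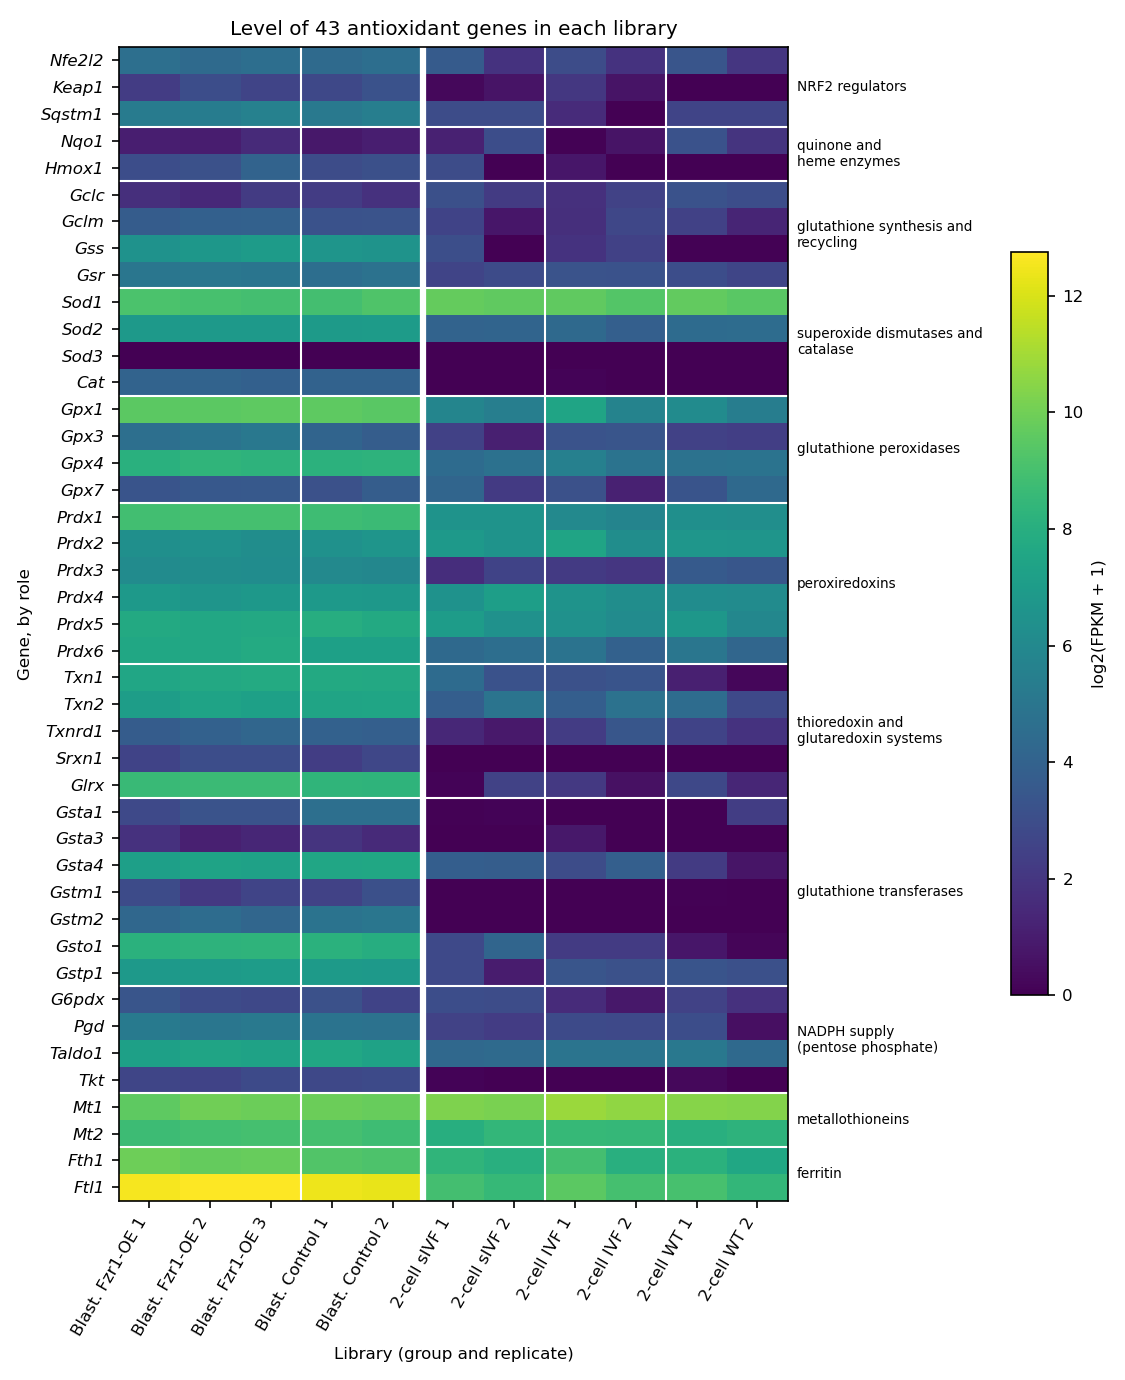
Each row is 1 of the 43 genes, grouped by role, each column 1 library, and colour gives log2(FPKM + 1). The Ftl1 row is brightest in the 5 blastocyst libraries and the Mt1 row in the 6 2-cell libraries, and most glutathione transferase rows are dark in 2-cell embryos.

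Promoters were searched for the response elements for which this pathway is known, and the stretches shown were chosen because they hold a match. RefSeq promoter windows (GRCm38.p6) of 300 bases, from before to shortly after each transcript start, were held for 37 of the 43 members, 46 windows in all. Gclc, Sod3, Prdx6, Gsr, Hmox1 and Gsta4 had none. The core of the antioxidant response element, which NRF2 binds, was searched as TGACNNNGC on both strands. It was found in 10 of 46 member windows (21.7%) and in 4071 of 32851 windows of all genes (12.4%). The members with a match were Nfe2l2, Gclm, Sod1, Prdx1, Txnrd1, Srxn1, Gsta3, G6pdx, Pgd and Mt2. The metal response element core, bound by the zinc sensor MTF1, was searched in a loose form, TGCNCNC, on both strands. This pattern was found in 23 member windows (50%), against 51% of all windows. It allows any base at each N, so a match need not be a metal response element core. A match is a run of letters and not a measured binding site. The windows of Ftl1, Fth1, Gpx3 and Gstm2 held neither core. Nor did those of Sqstm1, Gss, Sod2, Cat, Gpx1, Prdx2, Prdx3, Txn1, Gsto1, Gstp1, Taldo1 and Tkt. Mt2 held the most matches of any member, 6, and Mt1 held 3. Of the Mt1 matches, 1 lay before the transcript start used here and the others after it. Bases outside the windows were not searched, so a low count or no match does not show that a gene lacks these elements. The bases before the transcript start of Mt1 and Mt2 follow, on the plus strand, with TGCNCNC matches in capitals. They lie at chr8:94178839-94179088 for Mt1, with 1 match, and at chr8:94172368-94172617 for Mt2, with 5 matches, 3 on the plus and 2 on the minus strand.
Mt1: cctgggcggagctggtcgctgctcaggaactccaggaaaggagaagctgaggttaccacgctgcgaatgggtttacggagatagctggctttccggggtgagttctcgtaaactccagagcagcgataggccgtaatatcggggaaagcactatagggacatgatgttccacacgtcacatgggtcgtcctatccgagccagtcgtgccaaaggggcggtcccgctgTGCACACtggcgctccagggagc
Mt2: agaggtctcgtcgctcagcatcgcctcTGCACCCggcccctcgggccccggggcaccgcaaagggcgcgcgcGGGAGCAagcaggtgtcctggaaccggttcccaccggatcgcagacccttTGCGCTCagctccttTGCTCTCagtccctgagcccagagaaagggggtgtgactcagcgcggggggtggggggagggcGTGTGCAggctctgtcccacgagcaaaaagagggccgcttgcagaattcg
The Mt2 stretch also holds the antioxidant response element core, left in lower case. Stretches before the start of 3 further members follow, with the antioxidant response element core in capitals. In each it lies on the minus strand. They are chr3:122245407-122245556 for Gclm, which encodes the modifier subunit of the enzyme that limits glutathione synthesis, chr4:116685449-116685598 for Prdx1, a cytosolic peroxiredoxin gene, and chr16:90220662-90220761 for Sod1.
Gclm: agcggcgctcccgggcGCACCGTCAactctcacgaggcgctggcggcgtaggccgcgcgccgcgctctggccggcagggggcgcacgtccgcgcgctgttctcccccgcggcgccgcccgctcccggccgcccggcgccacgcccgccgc
Prdx1: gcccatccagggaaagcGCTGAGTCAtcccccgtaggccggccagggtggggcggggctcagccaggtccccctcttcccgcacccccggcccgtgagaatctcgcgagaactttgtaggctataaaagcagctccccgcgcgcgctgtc
Sod1: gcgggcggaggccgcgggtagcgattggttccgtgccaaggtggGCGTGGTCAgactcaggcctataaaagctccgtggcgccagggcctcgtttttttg
Mt1 and Mt2 are neighbours on chromosome 8, with 5522 bases between their loci in the deposited tables (mm9).

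In blastocysts labelled Fzr1-OE both ferritin subunit genes rose against Control, and with them Gpx3, Prdx6 and Glrx, while the glutathione transferase genes Gsta1 and Gstm2 fell. Thus 5 members rose and 2 fell, of 42 measured at a mean of at least 1 FPKM (limma, Benjamini-Hochberg adjusted p under 0.05). Of all 9439 loci tested, 4.21% passed, 2.29% higher and 1.92% lower. The median log2 fold change of the members was 0.02, and that of all loci was 0.01. Groups did not overlap for 10 members that were higher and 6 that were lower in libraries labelled Fzr1-OE, 16 in all, as in 37.4% of all loci. At an unadjusted p under 0.05 stood 13 members, and 19.7% of all loci.

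Fth1, the ferritin heavy subunit gene (chromosome 19 from 10055090 to 10059601, mm9), was at 965, 847 and 891 FPKM in the libraries labelled Fzr1-OE, against 619 and 591 FPKM in Control. All 3 libraries labelled Fzr1-OE lay above both Control libraries, and the log2 fold change was 0.57 (SE 0.07, limma adjusted p = 0.00175). The fragments implied by the bounds of Fth1 rose less, at 1967, 1907 and 1973 against 1786 and 1773 in Control. The reason was not tested, so the size of this rise is uncertain. Ftl1 (chromosome 7 from 52713314 to 52715256) was at 5994, 6871 and 6692 FPKM, against 5443 and 5133 FPKM in Control. The groups again did not overlap, with a smaller log2 fold change of 0.30 (SE 0.06, adjusted p = 0.0261). The ratio of Fth1 to Ftl1 was 0.161, 0.123 and 0.133 in libraries labelled Fzr1-OE and 0.114 and 0.115 in Control. The heavy subunit was thus the rarer RNA in every blastocyst library, and its ratio was higher in each library labelled Fzr1-OE.

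Among the peroxide-removing enzymes, Gpx3, the gene of a secreted glutathione peroxidase (chromosome 11 from 54716356 to 54723884), had the largest called rise of the set. It was at 24.1, 28.1 and 33.6 FPKM in the libraries labelled Fzr1-OE, against 16 and 12.6 FPKM in Control (log2 fold change 0.95, SE 0.17, adjusted p = 0.0167). Gpx1, Gpx4 and Gpx7 did not pass, with log2 fold changes of 0.02, 0.03 and -0.00. Prdx6, which encodes a peroxiredoxin that uses glutathione, was at 190, 196 and 219 FPKM, against 152 and 152 FPKM in Control (chromosome 1 from 163170243 to 163181341). Its log2 fold change was 0.40 (SE 0.08, adjusted p = 0.0294), and no library labelled Fzr1-OE reached down to Control. As for Fth1, its implied fragments rose less than its FPKM, at 1910, 1920 and 2031 against 1762 and 1736 in Control. Prdx1 also did not overlap between groups, at 476, 502 and 511 FPKM against 436 and 413 FPKM in Control, but missed the threshold (0.22, SE 0.06, adjusted p = 0.0812). It passed with quantile normalization, upper-quartile scaling or the length trend removed. Implied fragments of Prdx1 were 1908, 1903 and 1954 against 1856 and 1838 in Control. Glrx, the gene of glutaredoxin, which removes glutathione from proteins, was at 404, 405 and 413 FPKM, against 320 and 310 FPKM in Control. With little spread in either group, its log2 fold change of 0.37 passed (SE 0.06, adjusted p = 0.0102, chromosome 13 from 75977334 to 75987599).

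The glutathione transferases moved the other way where they passed. Gsta1, an alpha-class transferase gene (chromosome 9 from 78078476 to 78090490), was at 6.02, 8.74 and 8.49 FPKM in the libraries labelled Fzr1-OE, against 24.4 and 24.2 FPKM in Control. This was the largest change of any member (log2 fold change -1.55, SE 0.19, adjusted p = 0.00203). Gstm2, a mu-class gene (chromosome 3 from 107784620 to 107789354), was at 18, 21.8 and 17.2 FPKM, against 27.9 and 30.9 FPKM in Control (-0.61, SE 0.14, adjusted p = 0.0493). Its neighbour Gstm1 did not pass (-0.26), nor did Gsta4, beside Gsta1 on chromosome 9, at 147, 167 and 155 FPKM against 185 and 195 FPKM in Control (-0.28, SE 0.08, adjusted p = 0.0939). Gsta4 passed with quantile normalization. Gsto1 and Gstp1, of the omega and pi classes, had log2 fold changes of 0.17 and 0.05. Fth1, Ftl1, Gsta1, Gstm1, Gstm2, Gstp1, Prdx1 and Txn1 have near-identical copies or processed pseudogenes in the mouse genome, and how reads shared with them were counted is not given in the sources used here, so their values are uncertain.

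**Figure D2:**
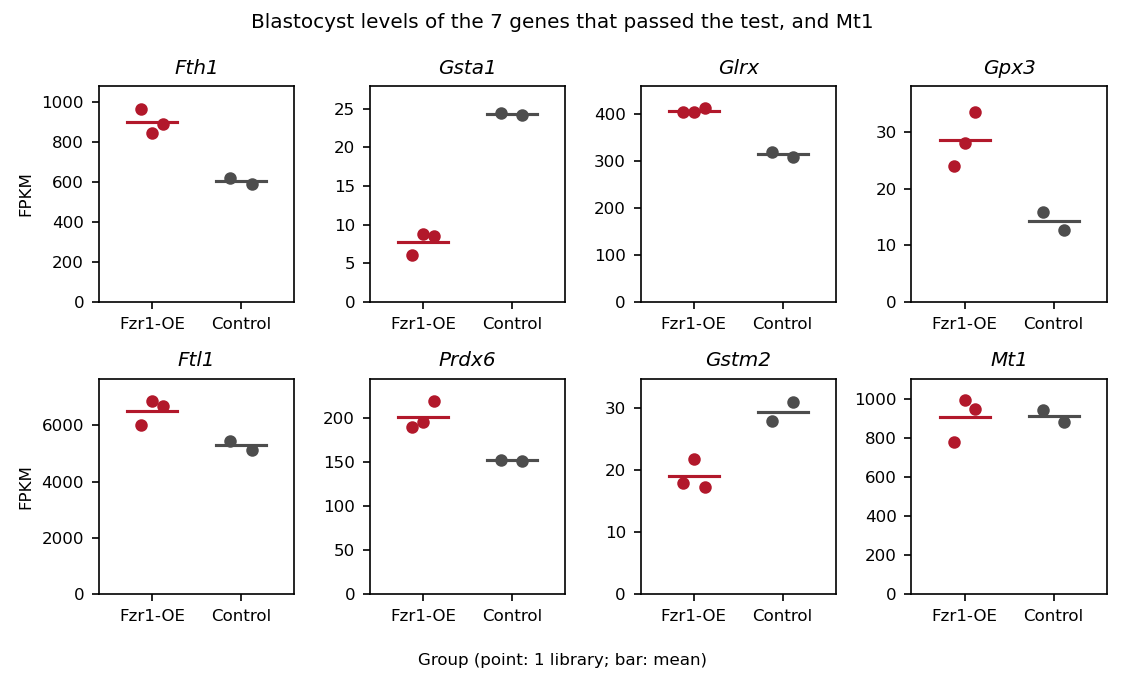
FPKM in each blastocyst library (points) with the group mean (bar) for the 7 genes that passed, in order of p, and for Mt1. In each of the 7 genes the 3 libraries labelled Fzr1-OE lie apart from the 2 Control libraries, and for Mt1 they overlap.

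None of the regulators of the pathway passed. Nfe2l2 was at 23.8, 20.3 and 23.5 FPKM in the libraries labelled Fzr1-OE, against 19.9 and 23.6 FPKM in Control (log2 fold change 0.05, SE 0.14, adjusted p = 0.899). Keap1 was at 3.86, 7.2 and 5.18 FPKM, against 5.87 and 8.26 FPKM in Control (-0.35, SE 0.26, adjusted p = 0.521). The groups overlap for both. Of the textbook NRF2 targets, Nqo1, a quinone reductase gene, was at 1.07, 1.06 and 1.87 FPKM against 0.741 and 1.08 FPKM in Control (0.28, SE 0.29, adjusted p = 0.659). Hmox1, the heme oxygenase gene, was at 7.14, 7.9 and 15.6 FPKM against 6.93 and 7.79 FPKM in Control (0.35, SE 0.29, adjusted p = 0.568). One library labelled Fzr1-OE, replicate 3, stood above the rest for both genes. Gclm was at 12.2, 14 and 14.8 FPKM against 8.39 and 8.53 FPKM in Control, without overlap, and lay just outside the threshold (0.63, SE 0.16, adjusted p = 0.0655). It passed with the filter at 5 FPKM or with upper-quartile scaling. Gclc, its catalytic partner, overlapped between groups (-0.26, adjusted p = 0.694). Gsr, the gene of glutathione reductase, did not overlap, at 31.4, 31.7 and 30.3 FPKM against 23.3 and 26.6 FPKM in Control, without passing (0.31, SE 0.12, adjusted p = 0.195). Mt1 was at 778.5, 995 and 948.5 FPKM against 943 and 882 FPKM in Control, and Mt2 at 428.5, 479.5 and 505 FPKM against 512.5 and 447 FPKM. The metallothionein log2 fold changes were -0.02 for Mt1 (SE 0.10, limma adjusted p = 0.953) and -0.03 for Mt2 (SE 0.09, limma adjusted p = 0.910). Both turned positive with quantile normalization, upper-quartile scaling or removal of the length trend. Over all 35 measured members that did not pass, log2 fold changes ran from -0.35 for Keap1 to 0.63 for Gclm.

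**Figure D3:**
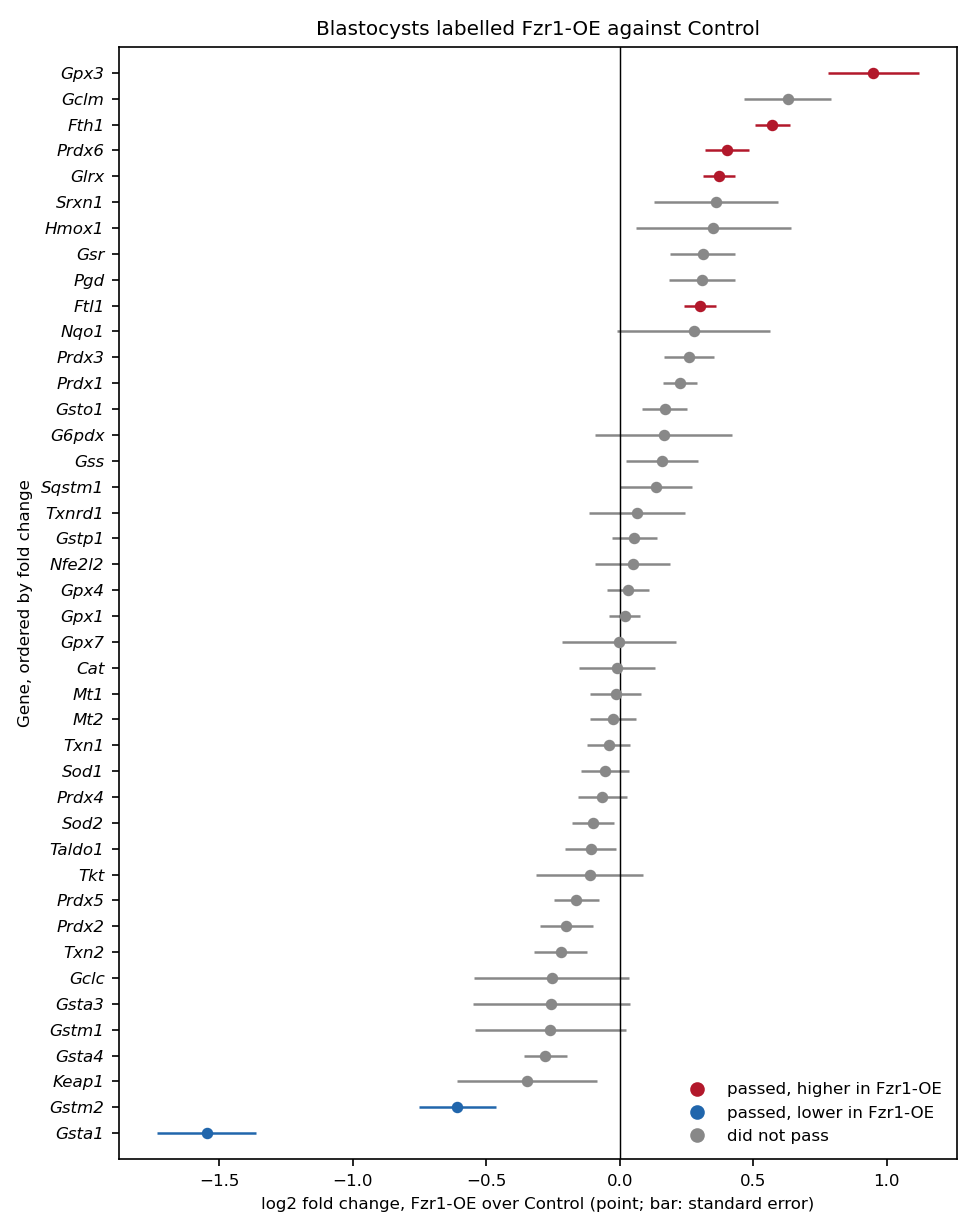
Log2 fold change of libraries labelled Fzr1-OE over Control for the 42 measured genes (points) with its standard error (bars), ordered by size. Genes that passed are red where higher and blue where lower, and Gclm lies above Fth1 in size but has a wider bar.

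Gsta1 and Fth1 passed whichever library was left out, and the other 5 calls each ended without at least 1 library. Leaving out replicate 1, 2 or 3 of the libraries labelled Fzr1-OE left 6, 3 or 2 calls, and leaving out replicate 1 or 2 of Control left 4 or 2. Without the filter the calls came to 0, and without the intensity trend to 1. Of 15 alternatives, Gsta1 passed in 14, Fth1 in 12, Glrx in 9, Gpx3 in 8, Ftl1 and Prdx6 in 7 each and Gstm2 in 4. In the same blastocyst libraries the 12 trophectoderm markers summed to 3829 to 3921 FPKM in those labelled Fzr1-OE and to 6162 to 6334 FPKM in Control. Of the 12, 7 fell and 0 rose (median log2 fold change -0.67), and none was at 0 in a blastocyst library. The 8 epiblast markers, 1 of which rose and 0 fell, summed to 325.6 to 376 FPKM in the libraries labelled Fzr1-OE and to 274 to 288 FPKM in Control. Of 6 measured primitive endoderm markers 1 rose and 0 fell. Of the 12 oocyte and 2-cell markers 4 were measured, of which 2 rose and 0 fell, and the 12 summed to 4073 to 4292 FPKM in the libraries labelled Fzr1-OE and to 3411 to 3456 FPKM in Control. The part of these shifts in the ferritin and transferase values was not tested. In bulk embryos, fewer cells of a type and less RNA per cell cannot be told apart.

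Other redox genes, from a list of 92, gave 3 rises and 4 falls among 67 measured. Of all loci 2.29% passed as higher and 1.92% as lower. The peroxidase gene Gpx2 rose, at 25.2, 20.7 and 22.7 FPKM in the libraries labelled Fzr1-OE against 10.3 and 6.33 FPKM in Control (log2 fold change 1.39, SE 0.20, adjusted p = 0.00605). Me1, the gene of malic enzyme, another source of NADPH, rose by 0.83 (SE 0.19, limma adjusted p = 0.0430). Gpx5 rose by 1.22 (SE 0.28, limma adjusted p = 0.0456), at 2.42, 1.67 and 1.61 FPKM against 0.123 and 0.366 FPKM in Control. Gpx5 met the filter of 1 FPKM only through the libraries labelled Fzr1-OE, where it was high. The filter thus favoured this rise, which is a description only. Mgst3, a membrane-bound glutathione transferase gene, fell, at 89.1, 94.1 and 99.7 FPKM against 141 and 151 FPKM in Control (-0.63, SE 0.09, adjusted p = 0.00485). Blvra, the biliverdin reductase gene, fell by 0.65 on the log2 scale and the selenoprotein W gene Sepw1 by 0.48. Slc3a2, a subunit gene shared by several amino acid transporters, fell by 0.39. Slc7a11, its partner in the cystine importer, was at 0 to 0.0156 FPKM in blastocyst libraries. This second list was also chosen with results of these data known.

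In 2-cell embryos no member passed in any of 3 comparisons, IVF against WT, sIVF against WT and sIVF against IVF, which share libraries and 1 fit. Of 43 members, 34 reached a mean of 1 FPKM and were measured. Of all 8246 loci, limma called 0.0121% for IVF against WT, which is 1 locus, and 0% for each comparison of sIVF. At an unadjusted p under 0.05 stood 7 members for IVF against WT (12.4% of all loci), 4 for sIVF against WT (7.09% of all loci) and 6 where sIVF was set against IVF (11.8% of all loci). For IVF against WT, 9 members were higher and 8 lower without overlap, with 22.8% and 19.3% of all loci (42.2% together). For sIVF against WT, 7 were higher and 6 lower, with 20.6% and 15.3% of all loci (35.9% together). For sIVF against IVF, 6 were higher and 10 lower, with 21.7% and 21% of all loci (42.7% together). The median log2 fold change of the members was 0.27 for IVF against WT, with 0.09 for all loci, but -0.12 without WT replicate 2 and 0.06 with the length trend removed. With upper-quartile scaling both medians moved up for IVF against WT, to 0.42 for the members and 0.24 for all loci. The member median was 0.00 against WT and -0.00 against IVF in sIVF.

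Txn1, the gene of cytosolic thioredoxin, had the smallest p in both comparisons against WT. It was at 20.8 and 8.32 FPKM in sIVF, at 7.99 and 9.07 FPKM in IVF and at 1.17 and 0.165 FPKM in WT. All 4 sIVF and IVF libraries lay above both WT libraries, whose higher value rested on 12 implied fragments, against 96 to 205 in sIVF and IVF. The log2 fold change was 3.16 for sIVF against WT (SE 0.63, adjusted p = 0.466) and 2.58 for IVF against WT (SE 0.63, adjusted p = 0.157). A pair of glutathione transferase genes showed the same order of groups. Gsta4 was at 13.2 and 12.5 FPKM in sIVF, at 6.68 and 13.5 FPKM in IVF and at 3.65 and 0.651 FPKM in WT. Gsto1 was at 6.07 and 16.9 FPKM in sIVF, at 3.59 and 3.65 FPKM in IVF and at 0.686 and 0.145 FPKM in WT. Neither passed: against WT, Gsta4 had log2 fold changes of 2.32 for sIVF (adjusted p = 0.508) and 1.93 for IVF (adjusted p = 0.298), and Gsto1 of 3.02 for sIVF (adjusted p = 0.466) and 1.73 for IVF (adjusted p = 0.351). Because both sets of values are taken against the same WT libraries, they are not independent of each other.

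Prdx3, the mitochondrial peroxiredoxin gene, stood lower than WT under both labels, at 2.21 and 4.96 FPKM in sIVF, at 3.53 and 3.03 FPKM in IVF and at 11.1 and 9.73 FPKM in WT. Its log2 fold change was -1.38 for sIVF against WT (SE 0.56, adjusted p = 0.668) and -1.41 for IVF against WT (SE 0.56, adjusted p = 0.355). Prdx4, the peroxiredoxin gene of the secretory pathway, was at 89.5 and 139 FPKM in sIVF, 94.1 and 74.6 FPKM in IVF and 73 and 69.8 FPKM in WT (0.63 for sIVF against WT, SE 0.28, adjusted p = 0.705). Prdx1 was lowest in IVF, at 91.9 and 91.2 FPKM in sIVF, 62.8 and 52.7 FPKM in IVF and 81.1 and 78.5 FPKM in WT. The sIVF libraries lay above the IVF libraries by 0.66 on the log2 scale (SE 0.23, adjusted p = 0.310).

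Several members differed most in IVF, without passing. Mt1 was at 1256 and 1176 FPKM in sIVF, 1814 and 1593 FPKM in IVF and 1361 and 1348 FPKM in WT. The IVF libraries were the highest of the 6, with a log2 fold change of 0.33 against WT (SE 0.12, adjusted p = 0.333), and sIVF lay 0.48 below IVF (log2 fold change -0.48, SE 0.12, adjusted p = 0.184). Mt2 was at 255 and 345 FPKM in sIVF, 376 and 358 FPKM in IVF and 266 and 301 FPKM in WT, also highest in IVF. Short transcripts ran higher in IVF, with a median of 0.19 in the shortest of 5 length classes and 0.04 in the longest, and with that trend removed the log2 fold changes against WT were 0.12 for Mt1 and 0.17 for Mt2. Sqstm1 was lowest in IVF, at 6.78 and 6.79 FPKM in sIVF, 1.92 and 0 FPKM in IVF and 5.21 and 5.06 FPKM in WT. Its log2 fold change was -1.84 for IVF against WT (SE 0.68, adjusted p = 0.338) and 2.19 for sIVF against IVF (SE 0.68, adjusted p = 0.267). Nqo1 was at 1.23 and 6.99 FPKM in sIVF, 0.0421 and 0.609 FPKM in IVF and 8.2 and 2.76 FPKM in WT, so that only the IVF libraries lay apart (-2.18 for IVF against WT, SE 0.84, adjusted p = 0.350). G6pdx, the gene of the entry enzyme of the pentose phosphate pathway, was at 7.02 and 6.81 FPKM in sIVF, 1.92 and 0.793 FPKM in IVF and 4.7 and 2.54 FPKM in WT. Txnrd1, the cytosolic thioredoxin reductase gene, was lowest in sIVF, at 1.67 and 0.814 FPKM in sIVF, 3.75 and 9.7 FPKM in IVF and 4.98 and 2.67 FPKM in WT. For sIVF against IVF the log2 fold changes were 1.79 for G6pdx (adjusted p = 0.301) and -1.70 for Txnrd1 (adjusted p = 0.378).

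**Figure D4:**
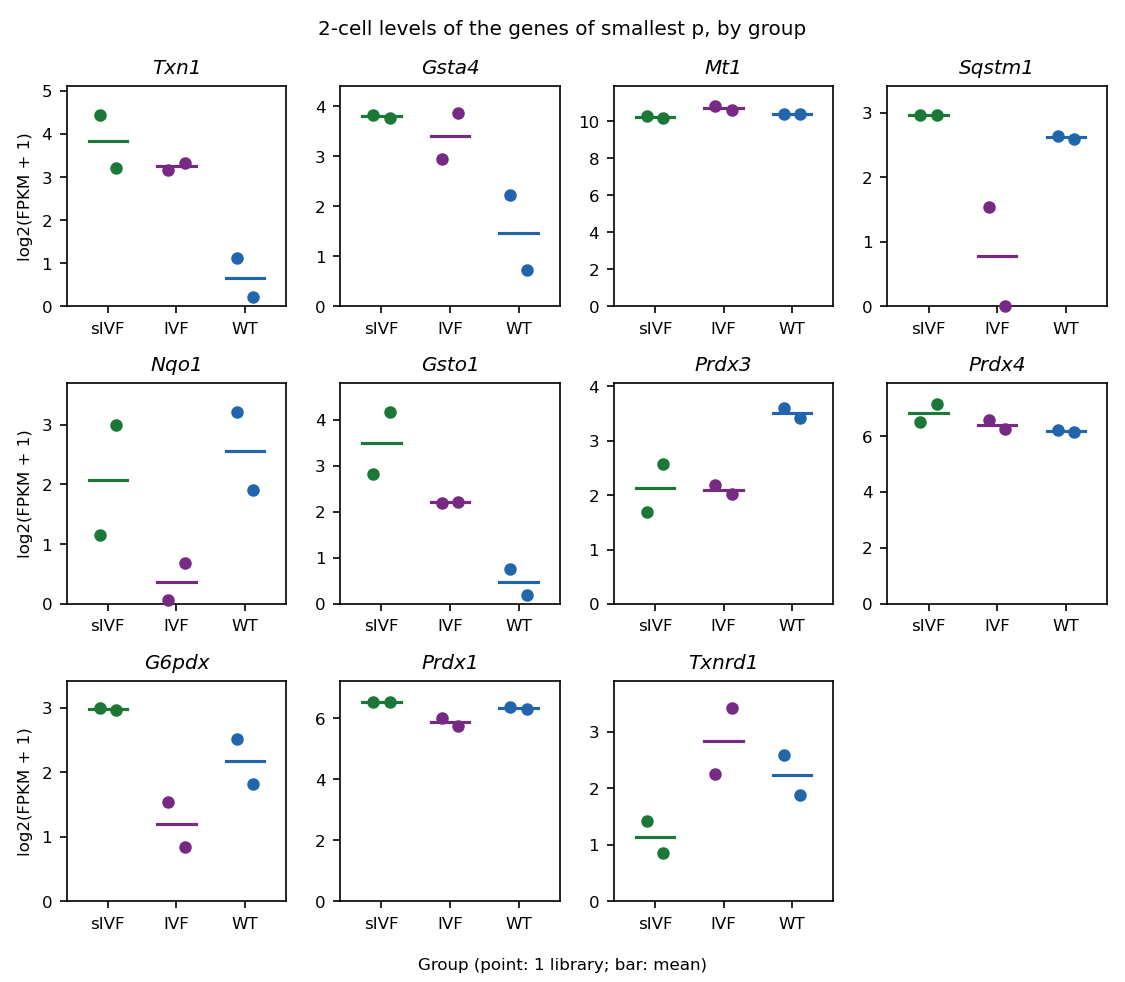
Log2(FPKM + 1) in each 2-cell library (points) with the group mean (bar) for the 11 genes that were among the 5 of smallest p in at least 1 comparison. Txn1, Gsto1 and Gsta4 are lowest in WT and Prdx3 is highest in WT, while Sqstm1, Nqo1, G6pdx and Prdx1 are lowest and Mt1 is highest in IVF.

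Nfe2l2 varied widely within groups, at 11.7 and 2.71 FPKM in sIVF, 6.68 and 2.6 FPKM in IVF and 9.33 and 3.1 FPKM in WT. Replicates of each group differed more than the group means did, and adjusted p was 0.999 for sIVF and 0.922 for IVF against WT, and 0.895 for sIVF against IVF. Keap1, under 1 FPKM in mean and not tested, was at 0.193 and 0.596 FPKM in sIVF, 3.21 and 0.58 FPKM in IVF and listed at 0 in both WT libraries. Hmox1 was above 0 in 1 sIVF library, at 6.81 FPKM, and 1 IVF library, at 0.704 FPKM, and was listed at 0 in the other 4. Fth1 was at 324 and 263 FPKM in sIVF, 498 and 261 FPKM in IVF and 283 and 189 FPKM in WT. Ftl1 was at 481.5 and 373 FPKM in sIVF, 751 and 503 FPKM in IVF and 522 and 349 FPKM in WT. In IVF the ferritin values overlapped WT, with log2 fold changes of 0.64 for Fth1 (SE 0.32, adjusted p = 0.472) and 0.53 for Ftl1 (SE 0.26, adjusted p = 0.471). Of the other redox genes, 44 of 92 were measured and 0 passed in each of the 3 comparisons, while 5, 3 and 6 stood at an unadjusted p under 0.05 in the same order. Among members with a group mean of at least 5 FPKM, the median range between replicates on the log2 scale was 0.225 in WT, 0.314 in sIVF and 0.32 in IVF, against 0.0997 in Control blastocysts. It was 0.214 in the 3 libraries labelled Fzr1-OE. Among all loci at that level it was 0.429 in WT, 0.406 in sIVF and 0.407 in IVF. In blastocysts it was 0.152 in Control and 0.262 in libraries labelled Fzr1-OE, so the members varied less in each group.

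Control blastocysts were set against WT 2-cell embryos to follow the set across cleavage. Of 41 measured members 33 were higher and 4 lower, where 65.4% of all 9762 loci passed, 45.8% higher and 19.6% lower. A member that passed the filter only through its blastocyst level had to differ, so these counts describe the set and test nothing. Without overlap, 35 members were higher and 5 lower, with 56.4% and 26.1% of all loci (82.5% together), and 37 members and 68.5% of all loci stood at an unadjusted p under 0.05. The median log2 fold change of all loci was 0.88, and that of the members was 2.65. With quantile normalization the medians were -0.02 for all loci and 1.81 for the members, and with the length trend removed they were 0.06 and 1.27. Stage and the making of the libraries cannot be told apart, since no library group spans both stages.

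The 12 members of smallest p were all higher in blastocysts. Ftl1 was at 5443 and 5133 FPKM in Control blastocysts, against 522 and 349 FPKM in WT 2-cell embryos (log2 fold change 3.63, SE 0.22, adjusted p = 2.17e-06). This is 2.75 above the median of all loci. Among the thiol enzymes, Txn1 was at 213 and 204 FPKM, against 1.17 and 0.165 FPKM (7.04, SE 0.40), and Prdx1 at 436 and 413 FPKM, against 81.1 and 78.5 FPKM (2.40, SE 0.12). Gpx4, which reduces lipid peroxides, was at 289 and 296.5 FPKM, against 27.4 and 28.3 FPKM (3.35, SE 0.23). Sod2, the mitochondrial dismutase gene, was at 121 and 125 FPKM, against 20.8 and 21.7 FPKM (2.48, SE 0.19). In the main fit each of these rises was above the median of all loci by at least 1.51 on the log2 scale. With the length trend removed the log2 fold changes were 2.29 for Ftl1, 5.65 for Txn1, 1.07 for Prdx1, 2.11 for Gpx4 and 2.09 for Sod2. The median of all loci was then 0.06. Implied fragments of Prdx1 were 1856 and 1838 in Control and 789 and 858 in WT, at means of 424.5 and 79.8 FPKM. Those of Gpx4 were 1416 and 1439 against 220 and 263, at means of 292.8 and 27.8 FPKM. Blastocyst libraries were deeper, yet these fragments rose less than FPKM, so the length-corrected values of Prdx1 and Gpx4 are uncertain.

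The transferase genes differed widely between the stages. Gsto1 was at 286 and 243 FPKM in Control blastocysts, against 0.686 and 0.145 FPKM in WT 2-cell embryos (7.57, SE 0.39), and Gsta4 at 185 and 195 FPKM, against 3.65 and 0.651 FPKM (6.11, SE 0.45). Gstm2, at 27.9 and 30.9 FPKM in Control blastocysts, was listed at 0 in both WT libraries, as were Cat, the catalase gene, at 15.3 and 15.4 FPKM, and Srxn1, which repairs overoxidised peroxiredoxins, at 3.95 and 5.56 FPKM. Taldo1 and Tkt, of the non-oxidative branch of the pentose phosphate pathway, rose. Taldo1 was at 191 and 159 FPKM, against 33.3 and 19.8 FPKM (2.71, SE 0.24), and Tkt at 5.82 and 6.21 FPKM, against 0.209 and 0 FPKM (2.67, SE 0.25). Gss, the gene of glutathione synthetase, was at 97.7 and 92.9 FPKM, against 0.0494 and 0.0422 FPKM (6.52, SE 0.78). These genes were near the lower limit of detection in WT 2-cell embryos, apart from Taldo1. All 3 NRF2 regulators passed as higher. Nfe2l2 was at 19.9 and 23.6 FPKM, against 9.33 and 3.1 FPKM (1.80, SE 0.63, adjusted p = 0.0310), and this call ended without WT replicate 2 (1.14) and without either Control library, and fell short at 0.95 with quantile normalization and 0.84 with the length trend removed. Keap1, at 5.87 and 8.26 FPKM, and Hmox1, at 6.93 and 7.79 FPKM in Control blastocysts, were listed at 0 in both WT libraries. Fth1 was at 619 and 591 FPKM, against 283 and 189 FPKM (1.38, SE 0.28, adjusted p = 0.00231). With quantile normalization its value was 0.60, and with the length trend removed 0.43, and neither passed. Its implied fragments were 1786 and 1773 in Control and 1967, 1907 and 1973 in libraries labelled Fzr1-OE, at means of 605 and 901 FPKM. The bounds of Fth1 thus did not follow a count, so its relative length and length-corrected value are uncertain. Whether its FPKM is affected as well was not tested.

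Against this rise, 4 members passed as lower in Control blastocysts. Mt1 was at 943 and 882 FPKM, against 1361 and 1348 FPKM in WT 2-cell embryos (log2 fold change -0.57, SE 0.12, adjusted p = 0.00222). Sod1 was at 497 and 602 FPKM, against 824 and 705 FPKM (-0.48, SE 0.14, adjusted p = 0.0130). Neither gene overlapped between the stages, and both were lower still relative to the median of all loci, by 1.45 and 1.36. Nqo1 fell, at 0.741 and 1.08 FPKM against 8.2 and 2.76 FPKM (-1.63, SE 0.62, adjusted p = 0.0428), and Gclc, the catalytic subunit gene of glutathione synthesis, fell, at 3.84 and 2.56 FPKM against 8.39 and 7.17 FPKM (-1.08, SE 0.42, adjusted p = 0.0477). The Nqo1 value was -0.98 without WT replicate 1 and did not pass, and the same call ended without either IVF library, any library labelled Fzr1-OE or either Control library, which share the fit. Mt2 was at 512.5 and 447 FPKM, against 266 and 301 FPKM, and passed as higher (0.75, SE 0.16, adjusted p = 0.00240), but was 0.13 below the median of all loci and turned to -0.051 with quantile normalization and -0.31 with the length trend removed. The ratio of Mt1 to Mt2 was 1.84 and 1.98 in Control blastocysts and 5.11 and 4.48 in WT 2-cell embryos. Prdx4 likewise passed as higher by 0.64 (adjusted p = 0.0264) but turned to -0.21 with quantile normalization, and with the length trend removed it passed as lower (-0.71, adjusted p = 0.0147). Of the other redox genes, 39 of 64 measured were higher and 12 lower, where 45.8% of all loci passed as higher and 19.6% as lower. Idh1, the gene of a cytosolic source of NADPH, averaged 149 ± 2.35 FPKM in Control blastocysts and 0.21 ± 0.25 FPKM in WT 2-cell embryos (SD, n = 2 each). Tfrc, the transferrin receptor gene for iron uptake, ran opposite to ferritin, at 5.44 ± 0.726 FPKM in Control blastocysts and 59.9 ± 12.8 FPKM in WT 2-cell embryos (-3.23, SE 0.24). Ireb2, the gene of an iron-sensing RNA-binding protein, was also lower (-2.72, SE 0.26). The iron genes of this list were mixed, and Aco1, Ncoa4 and Pcbp1 stood higher in Control blastocysts. Aco1 was at 6.42 and 5.5 FPKM, against 0.802 and 1.17 FPKM in WT 2-cell embryos. Ncoa4 was at 14.6 and 11.9 FPKM against 3.46 and 1.58 FPKM, and Pcbp1 at 128.8 and 124.4 FPKM against 35.75 and 51.25 FPKM.

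**Figure D5:**
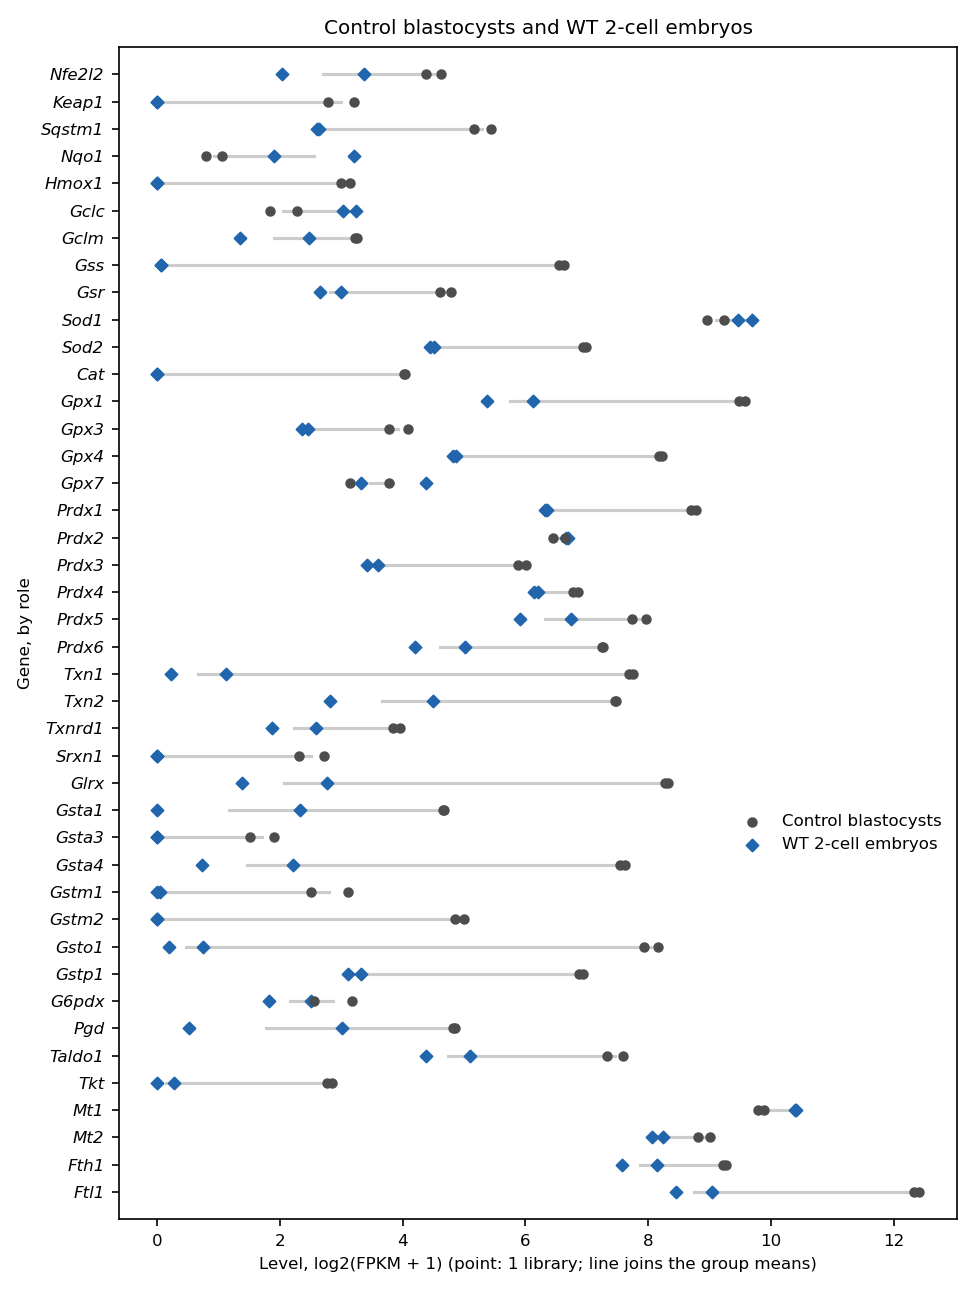
Log2(FPKM + 1) of 42 genes (all but Sod3) in the 2 Control blastocyst libraries (grey circles) and the 2 WT 2-cell libraries (blue diamonds), with a line between group means. Most grey circles lie to the right, with Mt1, Sod1, Nqo1 and Gclc among those to the left.

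In adult fat, the gene ontology tables that the authors deposited name 449 gene symbols for RNA and 119 for reduced-representation bisulfite sequencing, a readout of DNA methylation, in Fzr1-OE against Control. No member was among them. Of the other redox genes, the RNA table named Bach2, a repressor related to the heme-sensing BACH1, and Nfe2l3, a relative of Nfe2l2. These tables list genes selected by the authors under terms, so a gene that is not named may still have been measured.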

How the data were processed

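The deposited tables of 11 embryo libraries give each gene's FPKM with a lower and an upper bound and have the column names of Cufflinks tracking tables, per the file headers. HISAT2 2.1.0, Cufflinks 2.2.1, Cuffdiff and the build mm9 are named, without roles, in the submitters' processing notes. Per the labels' protocols, amplified cDNA was sequenced as paired ends. The fat tables proved to be gene ontology lists, not values per gene. They hold a p-value for each term as deposited by the authors, which was not used, and supplied gene names only. Libraries of H3K9me3 and input were not used here. Titles gave the groups.

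limma 3.58.1 in R 4.3.3 (eBayes, intensity trend) was run on log2(FPKM + 1) of loci averaging at least 1 FPKM over the fitted libraries, a scale that shrinks the fold changes of low genes. All 6 2-cell libraries were fitted together, all 5 blastocyst libraries together, and all 11 for the stages. The threshold was a p of 0.05 after Benjamini-Hochberg adjustment over all loci. Depth and relative transcript length were worked out by reading the distance from value to bound as 2 SD of a Poisson count. Read so, the bounds cover counting error only, and at 1 FPKM that error was 30.6% to 37.7% of the value. For Fth1 this reading did not hold. Implied fragments of Prdx1, Prdx6 and Gpx4 also rose less in proportion than their FPKM between the stages, although blastocyst libraries were deeper. The reading may fail for others too. No 2 tables were identical.

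The members and lists were chosen with earlier results of these data known. Full values are given for members that passed (the 12 of smallest p at most), for the 5 of smallest p where fewer than 5 passed, and for Nfe2l2, Keap1, Nqo1, Hmox1, Mt1, Mt2, Fth1 and Ftl1 in each comparison. Of the other redox genes, up to 4 that passed in a direction could be named. Further members, such as those just outside the threshold, Gsr, and Gss and Prdx4 between stages, were chosen after their values were seen. Fits were repeated with a smaller pseudocount (0.1), without the filter, with it at 5 FPKM, after quantile normalization, upper-quartile scaling or with the trend of each library with length taken out, without the intensity trend, with robust estimation (statmod 1.5.0), with a replicate block, with only the libraries compared, and without each library in turn. The steps were tested on simulated data. Promoter windows are RefSeq's. Tables and plots were made in Python 3.11.15 with pandas 2.3.3, numpy 2.4.6 and matplotlib 3.10.9.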

Additional observations from a re-analysis of the deposited data

How the results depend on the processing

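Calls among the members stayed at 0 in each 2-cell comparison under all 17 alternatives, and ran from 30 to 39 between stages under 22. The 7 calls between blastocysts came to 0 with no filter, 1 with no intensity trend, 1 with the replicate block and 2 with the replicate block with the length trend removed, to 6 with a pseudocount of 0.1, 7 with robust estimation, 8 with the filter at 5 FPKM, upper-quartile scaling or the length trend removed and 9 with quantile normalization, and to 2 to 6 when a library was left out; the lone library of a group is then assumed to vary like the others. Replicate numbers did not pair the libraries: the correlation across loci of same-numbered differences was 0.072, 0.000, -0.002, -0.008 and 0.001 over the 5 comparisons, and the block lowered the blastocyst calls as above. The member median between stages came to 1.81 with quantile normalization and 1.27 with the length trend removed, with or without the replicate block, and that for sIVF against IVF to -0.15 with upper-quartile scaling. Leaving out a library gave medians of -0.12 to 0.35 for IVF against WT and -0.22 to 0.15 for sIVF against IVF.

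Directions turned for Mt2 in sIVF against WT (-0.081 with quantile normalization, -0.034 with the length trend removed, with or without the replicate block) and between stages (-0.051 with quantile normalization and -0.31 with the length trend removed, again with or without the block). In blastocysts Mt1 and Mt2 turned to 0.0035 and 0.0251 with quantile normalization, 0.0338 and 0.0230 with upper-quartile scaling and 0.0209 and 0.0081 with the length trend removed. On leaving out a library the log2 fold change of Nfe2l2 ran from -0.97 to 0.36 for IVF against WT, -0.81 to 0.96 for sIVF against WT, -0.50 to 1.27 for sIVF against IVF and -0.069 to 0.17 in blastocysts. For sIVF against WT it ran from -1.40 to 0.44 for Nqo1, -0.15 to 0.29 for Mt2 and -0.30 to 0.28 for Ftl1, for sIVF against IVF from -0.77 to 0.16 for Fth1, and in blastocysts from -0.086 to 0.091 for Mt1 and -0.13 to 0.073 for Mt2. The causes were not tested. With 2 or 3 libraries per group, genes near 1 FPKM in 2-cell embryos rest on few fragments, and small differences were not detectable at this depth.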
